A study of Mus musculus with 6 samples.

Results

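The FGF ligands and receptors of the limb bud were examined as 8 genes chosen by symbol: the apical ridge ligands Fgf8, Fgf4, Fgf9 and Fgf17, the mesenchymal ligand Fgf10, and the receptors Fgfr1, Fgfr2 and Fgfr3. All 8 were present among the 12065 genes of the deposited table. The 6 RNA-seq libraries each held limb bud tips, cut from the distal end, of 2 mouse embryos. The 3 overexpressing pools were HoxB6CreER;R26Meis2a-IRES-EYFP/Meis2a-IRES-EYFP and the 3 control pools were R26Meis2a-IRES-EYFP/Meis2a-IRES-EYFP without the Cre driver. Both genotypes thus carried 2 copies of a Rosa26 transgene for Meis2 isoform a and a yellow fluorescent reporter. Both came from pregnant females given 0.8 mg of 4-hydroxytamoxifen into the abdomen at embryonic day 8.3, so effects of Cre itself cannot be told apart from those of Meis2. Tips were taken at 37, 38 and 39 somites, with 1 pool of each genotype at each stage. The HoxB6 promoter is known for activity in the lateral plate mesoderm that forms the limb mesenchyme; the cells in which Cre acted were not measured here.

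FGFs are secreted proteins that bind receptor tyrosine kinases together with heparan sulfate. In the limb bud the apical ridge, a strip of thickened ectoderm at the edge, makes Fgf8 along its length and Fgf4, Fgf9 and Fgf17 in more restricted parts, and these ligands keep the underlying mesenchyme growing. The mesenchyme answers with Fgf10, which acts on the ectodermal form of Fgfr2 and maintains the ridge, so ligands on each side sustain the other. Meis2 is a TALE-class homeobox gene of the proximal limb, and the comparison of the genotypes addressed what raised Meis2 does in the distal limb.

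Values are CPM, read counts that the authors scaled to a common library size. The libraries held 7622698 to 15395447 reads. Meis2 itself was at 20.6, 15.3 and 13.8 CPM in the control pools and 41.3, 33.4 and 28.2 CPM in the overexpressing pools at 37, 38 and 39 somites. Its genotypes did not overlap, and it rose (log2 fold change 1.01, SE 0.16, limma adjusted p = 0.0185). With pools numbered 1 to 3 by stage, the adjusted p of Meis2 was 0.0681 and 0.0693 without control pools 2 and 3, 0.0651 without overexpressing pool 2, and 0.0676 with robust eBayes without a trend. Of 26 surface ectoderm markers outside the ridge program 23 were in the table, and 0 of them were listed at 0 in all libraries. All 13 limb mesenchyme markers were present, with a summed level of 1885 to 2101 CPM in controls and 2171 to 2392 CPM with Meis2 overexpression. None of them passed the test, 11 were higher by sign, and the smallest p values were those of Prrx1, a homeobox gene of limb mesenchyme (log2 fold change 0.37, limma adjusted p = 0.130; 0.0152 when the fit also held the stage), and Twist2, a bHLH gene (0.45, limma adjusted p = 0.182). With the stage in the fit 2 of the 13 rose, beside 1.47% of all genes. They were Prrx1 and the collagen gene Col3a1 (log2 fold change 0.45, limma adjusted p = 0.0134), which was named after its values were seen.

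Read per kilobase of annotated exon, Fgf8 was the most abundant of the 8 in controls, at 70.1 ± 3.96 CPM per kb (SD, n = 3). Fgfr1 followed at 19.4 ± 1.41, Fgf10 at 15.8 ± 0.275 and Fgf4 at 9.63 ± 0.371 CPM per kb. Fgfr2 stood at 4.45 ± 0.175, Fgf17 at 2.03 ± 0.170, Fgf9 at 1.53 ± 0.156 and Fgfr3 at 0.901 ± 0.161 CPM per kb. No neighbours in this order overlapped in the 3 control pools, so the order held within the spread of the replicates for that choice of length. It depends on the length used: with the longest transcript in place of all exons, Fgfr2 (10.4 ± 0.408 CPM per kb) came level with Fgf4 (10.2 ± 0.392), and Fgf9 (1.98 ± 0.202) with Fgf17 (2.03 ± 0.170). With Meis2 overexpression the lead of Fgf8 narrowed, to 41.9 ± 7.57 CPM per kb against 24.3 ± 2.32 for Fgfr1 over all exons. By the longest transcript the 2 genes overlapped there, at 48.4 ± 8.75 and 47.6 ± 4.54 CPM per kb. Receptor genes are spliced into forms that differ in ligand choice between ectoderm and mesenchyme, and the gene-level values do not separate these forms.

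The upstream sequences of 3 ligands are shown because Fgf4 and Fgf9 were lower with Meis2 overexpression while Fgf10 was nearly level. Each is the 250 bases before the start of the RefSeq gene on build GRCm38.p6, which is not the authors' build, 5′ to 3′ on the coding strand. In capitals are matches, on either strand, to TGACAG (known for MEIS proteins), TGATTGA (PBX), CTTTGAT (TCF and LEF) and GGGCGG (the GC box of SP factors). None of the 3 windows held annotated exon bases in GENCODE M21, although longer transcript models of each gene span them.
Fgf4, chr7:144861136-144861385, plus strand: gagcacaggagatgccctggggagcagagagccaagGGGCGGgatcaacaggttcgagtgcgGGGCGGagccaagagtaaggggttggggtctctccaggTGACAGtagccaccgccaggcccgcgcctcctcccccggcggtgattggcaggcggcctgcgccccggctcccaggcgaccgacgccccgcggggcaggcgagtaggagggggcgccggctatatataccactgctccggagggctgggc
Fgf9, chr14:58072436-58072685, plus strand: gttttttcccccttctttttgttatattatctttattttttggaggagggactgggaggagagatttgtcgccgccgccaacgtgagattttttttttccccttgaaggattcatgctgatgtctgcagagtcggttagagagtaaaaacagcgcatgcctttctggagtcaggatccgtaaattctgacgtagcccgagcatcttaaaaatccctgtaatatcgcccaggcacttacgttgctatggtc
Fgf10, chr13:118714449-118714698, plus strand: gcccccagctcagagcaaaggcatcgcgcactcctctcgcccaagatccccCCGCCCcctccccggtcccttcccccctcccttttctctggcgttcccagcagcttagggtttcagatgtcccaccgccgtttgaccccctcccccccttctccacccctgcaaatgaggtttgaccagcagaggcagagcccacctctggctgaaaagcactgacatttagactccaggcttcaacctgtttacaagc
The Fgf4 window held 1 match to TGACAG, starting 150 bases before the start, and 2 to GGGCGG, at 214 and 188 bases. The Fgf10 window held 1 match to GGGCGG on the opposite strand, and the Fgf9 window held none of the 4 motifs. Over the 32851 promoter windows of the same length that were scanned, with 1 chromosome left out, 15.9% held TGACAG, 2.34% TGATTGA, 3.21% CTTTGAT and 32.7% GGGCGG. The windows differed in composition, with 71.2% G or C in Fgf4, 61.2% in Fgf10 and 44.8% in Fgf9, against a median of 52.4%. Sequence entries were matched for 5 of the 8 genes by symbol: Fgf4, Fgf9, Fgf10, Fgfr2 and Fgfr3. Entries for Fgf8, Fgf17 and Fgfr1 were not used here.

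The ridge ligands Fgf8, Fgf4 and Fgf9 fell with Meis2 overexpression. Their mean levels differed from the controls by -40.3%, -43.9% and -47.1%, while the other 5 genes did not pass the test. Of the 8, 3 fell and 0 rose, where 1.47% of all genes passed, with 0.68% lower and 0.787% higher (limma on log2(CPM + 1), Benjamini-Hochberg adjusted p under 0.05). The same 3 fell with the stage in the fit (2.82% of all genes passed, 1.35% lower and 1.47% higher), with edgeR (1.42%) and with DESeq2 (2.4%). With robust eBayes without a trend 1 fell, Fgf9, beside 0.713% of all genes. The median log2 fold change of the 8 was -0.26, beside -0.00 over all genes. Genotypes did not overlap for 6 of the 8, against 20.7% of all genes. A permutation of 3 pools against 3 allows no exact p below 0.1, so these tests rest on the variance that limma shares across genes.

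Fgf8, the ligand made along the whole ridge, was at 96.8, 88.5 and 98.6 CPM in the control pools and 49.4, 51.9 and 68.2 CPM in the overexpressing pools at 37, 38 and 39 somites. The highest overexpressing pool lay below the lowest control pool. The log2 fold change was -0.75 (SE 0.11, limma adjusted p = 0.0114), with 401 to 1055 reads per library. The adjusted p was 0.0519 without the overexpressing pool of 38 somites, 0.0562 without the control pool of 39 somites and 0.0621 with robust eBayes without a trend.

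Fgf4, a ligand of the ridge that signals in a loop with Shh of the posterior mesenchyme, was at 31.8, 29.5 and 31.0 CPM in the control pools. The overexpressing pools held 14.7, 14.0 and 23.1 CPM. The control pools were close together and the overexpressing pool of 39 somites stood above the other 2 of its genotype. Fgf4 fell by 0.83 on the log2 scale (SE 0.16, limma adjusted p = 0.0347). The call was lost without any one of 5 pools: the adjusted p was 0.0996, 0.0975 and 0.118 without control pools 1, 2 and 3, and 0.0758 and 0.114 without overexpressing pools 1 and 2. It was 0.0903 with robust eBayes without a trend. Without overexpressing pool 3 the difference grew to -1.05 (adjusted p = 0.000599).

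Fgf9, a ligand of the ridge and the limb ectoderm, was at 6.35, 7.24 and 7.79 CPM in the control pools and 4.12, 3.11 and 4.07 CPM in the overexpressing pools. The genotypes did not overlap, on 24 to 83 reads per library. Fgf9 fell by 0.77 on the log2 scale (SE 0.15, limma adjusted p = 0.0361). The call was lost whichever pool was left out, with limma adjusted p from 0.0545 to 0.144, although the log2 fold change stayed between -0.84 and -0.67. The pools left out were control pools 1, 2 and 3 (adjusted p = 0.0575, 0.120 and 0.144) and overexpressing pools 1, 2 and 3 (0.0566, 0.125 and 0.0545).

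Fgf17, a close relative of Fgf8 by protein sequence, was at 3.41, 3.14 and 3.71 CPM in the control pools and 2.81, 2.46 and 3.62 CPM in the overexpressing pools. The genotypes overlapped, and the log2 fold change was -0.17 (95% interval -0.54 to 0.21, limma adjusted p = 0.652). It was -0.07 without overexpressing pool 2 and -0.28 without overexpressing pool 3. Only 19 to 56 reads per library lay behind these values, and the Poisson interval of the overexpressing pool of 38 somites ran from 1.48 to 3.84 CPM, for counting error only. On the log2(CPM + 1) scale the change of so low a gene is understated; with a pseudocount of 0.1 its log2 fold change was -0.22.

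Fgf10 comes from the mesenchyme. It was at 71.5, 72.5 and 74.0 CPM in the control pools and 70.6, 71.1 and 67.7 CPM in the overexpressing pools. The overexpressing pools lay just below the control pools without overlap. The log2 fold change was -0.06 (95% interval -0.19 to 0.07, limma adjusted p = 0.655; -0.04 without overexpressing pool 3), on 549 to 1047 reads per library.

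**Figure D1:**
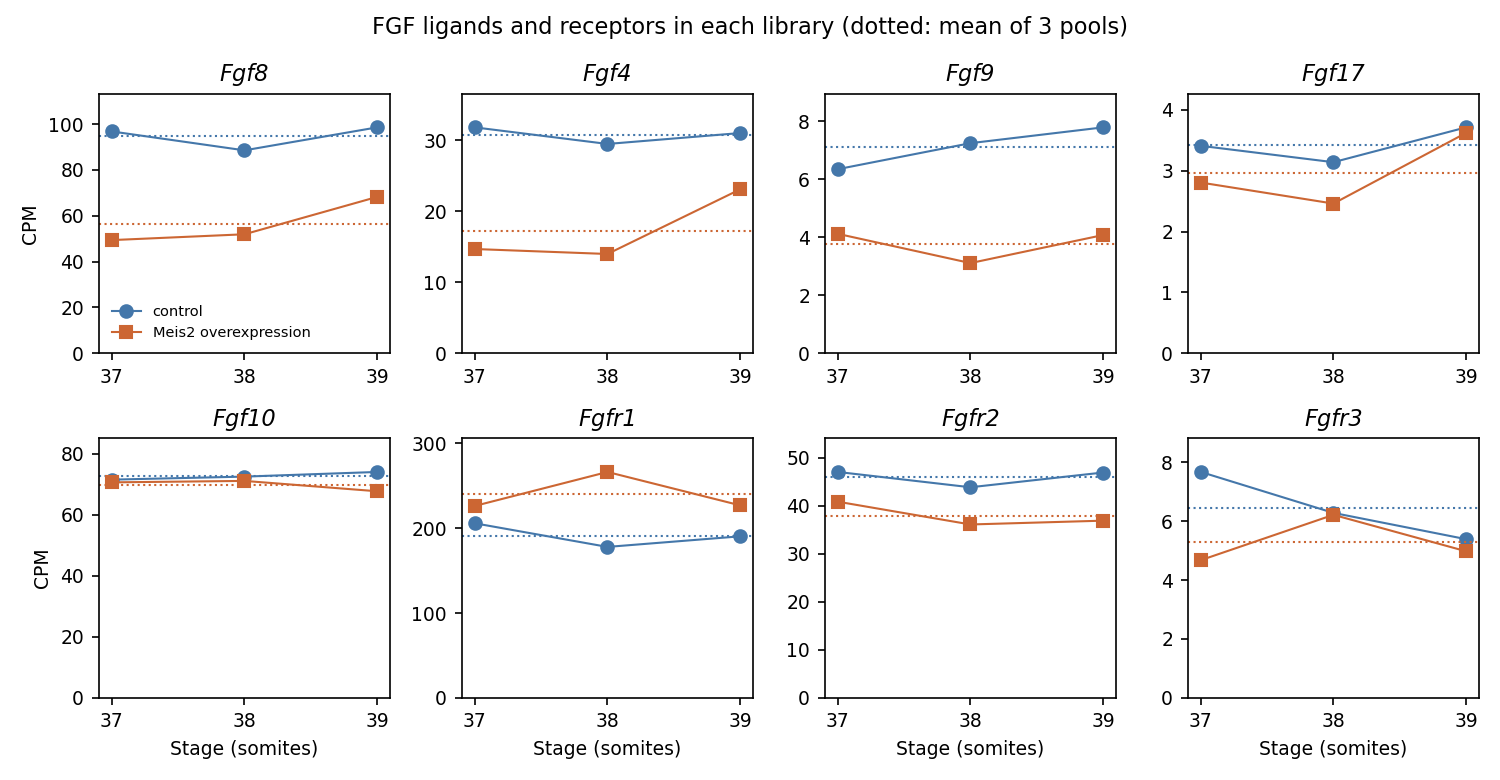
CPM of each FGF ligand and receptor against stage in somites, with circles for control pools, squares for overexpressing pools and dotted lines for the means of 3 pools. The Fgf8 points run from 88.5 to 98.6 CPM in controls and from 49.4 to 68.2 CPM with Meis2 overexpression, while the Fgf10 points of both genotypes lie between 67.7 and 74.0 CPM.

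The receptors did not pass the test. Fgfr1, the main receptor of the distal mesenchyme for ridge FGFs, was at 206, 178 and 190 CPM in the control pools and 226, 266 and 227 CPM in the overexpressing pools. All overexpressing pools were above all control pools, and the pool of 38 somites was the highest. The log2 fold change was 0.32 (95% interval 0.15 to 0.50, limma adjusted p = 0.0827), and Fgfr1 passed in 1 of 15 alternatives, DESeq2 on the recovered reads (adjusted p = 0.00869). Fgfr2, which carries the Fgf10 signal in the ectoderm, was at 47.1, 43.9 and 47.0 CPM in the control pools and 40.9, 36.1 and 36.9 CPM in the overexpressing pools. These genotypes did not overlap either, in the opposite direction to Fgfr1 (log2 fold change -0.27, 95% interval -0.44 to -0.10, limma adjusted p = 0.126).

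Fgfr3, known mainly as a brake on cartilage growth, was at 7.67, 6.28 and 5.39 CPM in the control pools and 4.68, 6.22 and 4.98 CPM in the overexpressing pools. The genotypes overlapped (log2 fold change -0.24, 95% interval -0.60 to 0.11, limma adjusted p = 0.484), on 45 to 81 reads, and the log2 fold change was -0.12 without control pool 1. In GENCODE M21 a gene model on the opposite strand, G630022F23Rik, covers 13.9% of the exon bases of Fgfr3, and the kit named in the labels does not mark strand. The other members shared at most 3.04% of their exon bases with another gene. A near-identical transcript was found for 1 member, Fgfr2, with Ctbp2, through read-through models that join both genes.

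**Figure D2:**
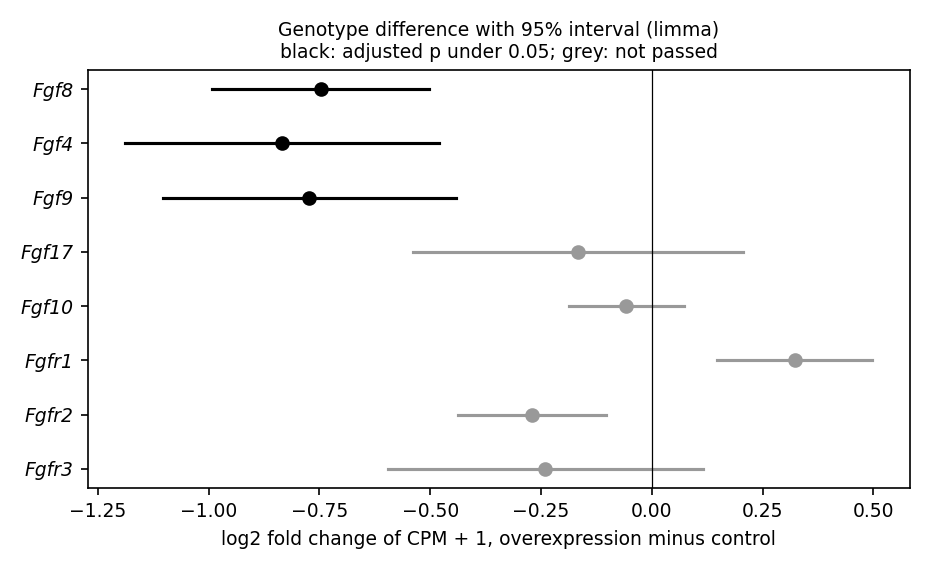
Log2 fold change of CPM + 1, overexpression minus control, for each gene, with points for the estimate and lines for its 95% interval from limma; black marks the genes that passed. Fgf8, Fgf4 and Fgf9 lie at -0.75, -0.83 and -0.77, and Fgfr1 at 0.32 is the one estimate above 0.

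Levels were then set against each other within each library, where scaling for depth cancels. The ratio of Fgf17 to Fgf8 was 3.52%, 3.55% and 3.77% in the control pools and 5.68%, 4.74% and 5.31% in the overexpressing pools. Every overexpressing pool was above every control pool, a log2 difference of 0.53. The exact permutation test gave p = 0.1 (two-sided), the smallest that 3 pools against 3 allow, and 0.15 adjusted over the 6 ratios between members. The ratio of Fgf10 to Fgf8 was 73.9%, 81.9% and 75.1% in controls and 143%, 137% and 99.2% with Meis2 overexpression, also without overlap (log2 difference 0.70, exact p = 0.1, adjusted 0.15). Fgf8 had already been called lower, while Fgf17 and Fgf10 had not. The ratios of Fgf17 and Fgf10 to Fgf8 thus largely restate the fall of Fgf8 and are not separate support. The ratio of Fgf4 to Fgf8 was 31.5% to 33.3% in controls and 26.9% to 33.8% with Meis2 overexpression, with overlap (log2 difference -0.12, exact p = 0.4). That of Fgf9 to Fgf8 overlapped too (-0.17, exact p = 0.4), with 6.56% to 8.18% in controls and 5.97% to 8.33% with Meis2 overexpression. Among the receptors, Fgfr1 was 4.06 to 4.37 times Fgfr2 in controls and 5.54 to 7.37 times with Meis2 overexpression, on the CPM scale (log2 difference 0.60, exact p = 0.1, adjusted 0.15). Its ratio to Fgfr3 moved by 0.61 in the same direction without overlap (exact p = 0.1, adjusted 0.15).

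The ridge is part of the ectoderm, and the ectoderm markers were lower in the same tips. All 23 measured markers outside the ridge program were lower by sign, 5 fell and 0 rose, with a median log2 fold change of -0.36. Over all 12065 genes 6037 were lower by sign, 0.68% fell and 0.787% rose, with a median of -0.00. Their summed level was 789 to 857 CPM in the control pools and 624 to 653 CPM in the overexpressing pools, a difference of -22.9% in the mean. Among the called markers were Epcam and Cdh1, which hold epithelial cells together, and Wnt6, a WNT ligand (log2 fold changes -0.57, -0.50 and -0.53). Wnt6 alone of these 3 lost its call with a pool left out, with limma adjusted p of 0.0792, 0.0529 and 0.0956 without control pools 1, 2 and 3 and 0.0629 and 0.0668 without overexpressing pools 1 and 3. Over all 15 alternatives Wnt6 lost its call in 6, and Epcam and Cdh1 in 0. In bulk tissue fewer cells of a type and less RNA per cell cannot be told apart.

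Fgf8 amounted to 11.3%, 11.2% and 11.8% of the summed ectoderm markers in the control pools and 7.57%, 8.16% and 10.9% in the overexpressing pools. The genotypes did not overlap, although 10.9% in the overexpressing pool of 39 somites lay close to 11.2% in the lowest control. The log2 difference was -0.38 (exact permutation p = 0.1, two-sided, the smallest possible, and 0.133 adjusted over the 4 ligands). Fgf4 amounted to 3.71%, 3.74% and 3.72% of the markers in controls and 2.25%, 2.20% and 3.70% with Meis2 overexpression. The overexpressing pool of 39 somites thus came close to the controls, while the other 2 lay far below (log2 difference -0.50, exact p = 0.1, adjusted 0.133). Fgf9 amounted to 0.741%, 0.918% and 0.933% in controls and 0.631%, 0.488% and 0.653% with Meis2 overexpression (log2 difference -0.55, exact p = 0.1, adjusted 0.133). Fgf17 amounted to 0.398% to 0.445% in controls and 0.387% to 0.580% with Meis2 overexpression, with overlap (log2 difference 0.15, exact p = 0.7). Without the overexpressing pool of 39 somites the log2 difference was -0.54 for Fgf8 and -0.74 for Fgf4. The part of the ectoderm content in the ligand levels was not tested beyond these ratios.

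**Figure D3:**
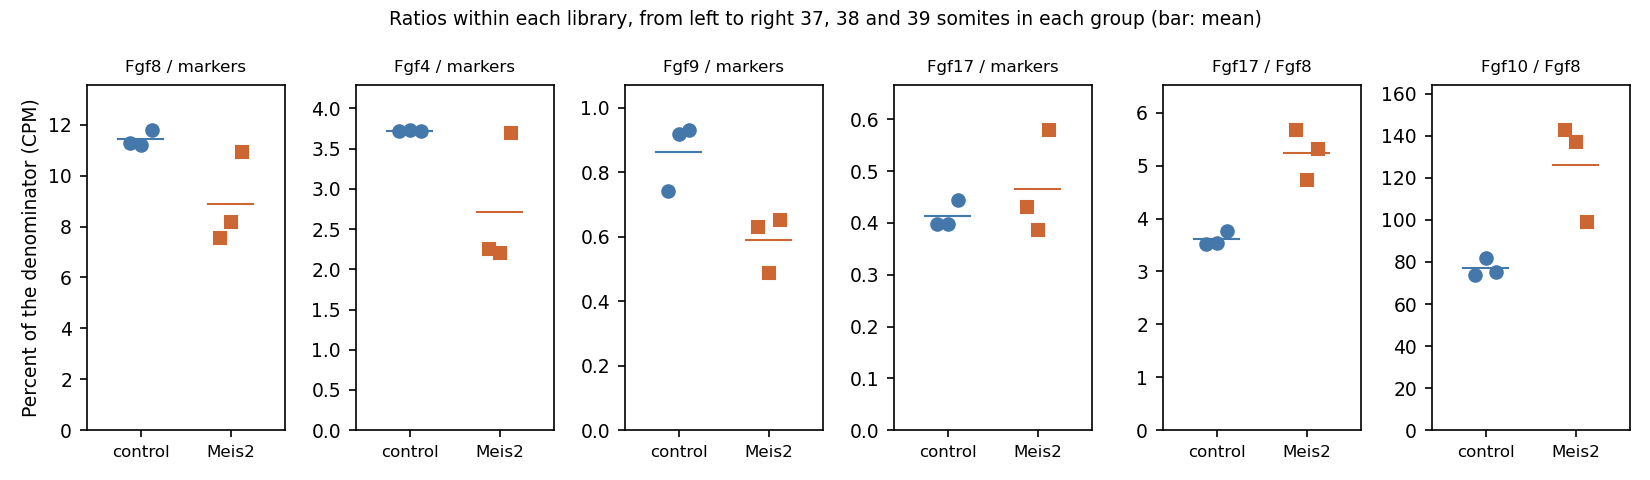
Ratios within each library as a percent of the denominator, on the CPM scale, with the 3 pools of a genotype from 37 to 39 somites from left to right and bars at their means. Fgf8, Fgf4 and Fgf9 over the summed ectoderm markers are lower in all 3 overexpressing pools, with Fgf4 at 3.70% in the pool of 39 somites against 3.71% in the lowest control, and Fgf17 over Fgf8 is higher in all 3.

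Of 23 regulators of the ridge, all measured, 4 fell, 0 rose and 19 did not pass the test, beside the 0.68% of all genes that fell. By sign 20 were lower and 3 higher, with a median log2 fold change of -0.40 beside -0.00 over all genes. The fall was not particular to them. Of the 23 ectoderm markers outside the ridge program 5 fell and 23 were lower by sign, with a median of -0.36. Rspo2, an enhancer of WNT signalling made by the ridge, fell by 0.73 on the log2 scale, from 38.4 to 22.8 CPM. The zinc finger genes Sp6 and Sp8, which are needed for Fgf8 in the mouse ridge, fell by 0.66 and 0.49, from 49.9 to 31.3 and from 42.4 to 29.8 CPM. Trp63, the p63 regulator of stratified epithelium, fell by 0.48, from 83.7 to 59.9 CPM. Their limma adjusted p were 0.0311, 0.0226, 0.0359 and 0.0189. None of the 4 passed with robust eBayes without a trend. Each lost its call with some pools left out: Rspo2 had adjusted p of 0.109 and 0.120 without control pools 2 and 3 and 0.057 and 0.1 without overexpressing pools 1 and 2. Sp6 had 0.0502 and 0.0896 without control pools 1 and 3 and 0.0872 without overexpressing pool 2. Trp63 had 0.0562 and 0.0905 without control pools 2 and 3 and 0.0768 without overexpressing pool 2. Sp8 lost it whichever pool was left out (0.0756, 0.0958 and 0.0593 for control pools 1 to 3, 0.0514, 0.132 and 0.069 for overexpressing pools 1 to 3). Summed over the 23 genes the level was 2953 to 3059 CPM in controls and 2591 to 2695 CPM with Meis2 overexpression. Most of this sum was Ctnnb1, which encodes beta-catenin and was named after its values were seen. Its means were 1784 CPM in controls and 1583 CPM with Meis2 overexpression (limma adjusted p = 0.194), so the sum mainly follows that gene.

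Outside the ridge regulators, 1 gene in the lists of FGF signalling passed, where 1.47% of all genes passed. So small a count is not particular to these genes. The table held 23 of 24 heparan sulfate core proteins and enzymes, and 1 passed, as lower (median 0.02, 14 higher and 9 lower by sign). The one was Sulf1, an extracellular sulfatase that trims heparan sulfate and so alters its binding of FGFs, from 20.3 to 12.7 CPM (log2 fold change -0.64, SE 0.11, limma adjusted p = 0.0226). The adjusted p of Sulf1 was 0.0863 and 0.101 without control pools 2 and 3 and 0.082 without overexpressing pool 2. Its relative Sulf2, named here after its value was seen, was at 0.15 (limma adjusted p = 0.365). None of the 22 adaptors and kinases downstream of the receptors passed. Their median was 0.04, and Mapk3, which encodes ERK1, and Gab1, a docking protein, had the smallest p (0.20 and 0.18, limma adjusted p = 0.197 and 0.307). Of 17 other ligands 2 were measured and did not pass, with Fgf15 at -0.41 and the intracellular homologue Fgf13 at -0.21 (limma adjusted p = 0.403 and 0.455). Fgf15 lies next to Fgf4 on the chromosome, and its genotypes overlapped at 2.45 ± 0.467 CPM in controls and 1.64 ± 0.708 CPM with Meis2 overexpression (SD, n = 3 each). Of 5 other receptors and co-receptors only Fgfrl1, a receptor that lacks the kinase domain, was measured, at 16.4 to 24.2 CPM in controls and 25.9 to 34.7 CPM with Meis2 overexpression (log2 fold change 0.49, limma adjusted p = 0.154).

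Of the 16 response genes of FGF signalling, all measured, none passed, 11 were lower and 5 higher by sign, and the median was -0.07. Dusp4, a phosphatase induced by ERK signalling, went from 33.0 to 23.9 CPM (log2 fold change -0.45, limma adjusted p = 0.140; 0.0459 when the fit also held the stage), and Mycn, a growth regulator, stood at 0.18 (limma adjusted p = 0.164). Over the 6 pathway lists, which include the ridge regulators, 5 genes fell and 0 rose, beside 0.68% and 0.787% of all genes. Of the 5, 4 were ridge regulators and 1 was Sulf1. Without the control pool of 39 somites or the overexpressing pool of 38 somites none of the genes in these lists fell. In the lists 3 fell without control pool 1 or overexpressing pool 1, 1 without control pool 2, and 4 without overexpressing pool 3.

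**Figure D4:**
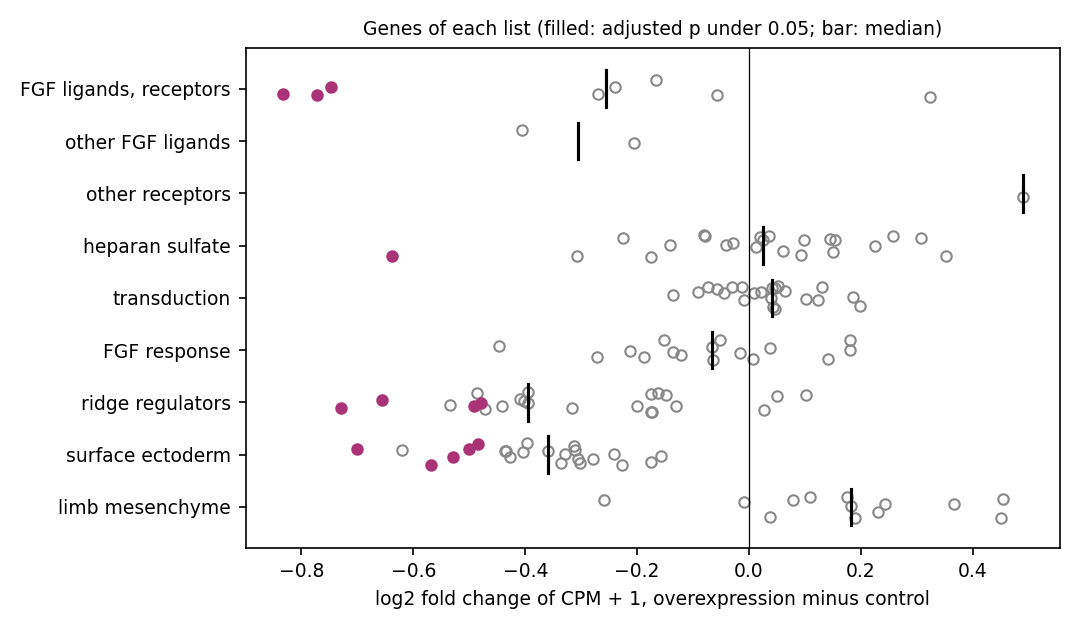
Log2 fold change of CPM + 1, overexpression minus control, of every measured gene in each list, with filled points for genes that passed, open points for the rest and bars at the list medians. Ridge regulators (median -0.40) and surface ectoderm (-0.36) lie mostly left of 0, with response genes (-0.07), transduction (0.04) and heparan sulfate genes (0.02) around it.

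Some markers of other cells also passed the test, where 0.787% of all genes rose and 0.68% fell. Of 10 erythroid markers 3 rose and 0 fell, led by Hbb-b2, Slc4a1 and Hba-x (log2 fold changes 1.09, 0.65 and 0.69), and their summed level was 2353 to 3440 CPM in controls and 4059 to 4847 CPM with Meis2 overexpression. Of 10 endothelial markers Kdr, a VEGF receptor, rose (0.46), and the sum went from 243 to 275 CPM in controls to 303 to 312 CPM. All 10 erythroid and all 10 endothelial markers were higher by sign, as were 6028 of all 12065 genes. Their median log2 fold changes were 0.58 for the erythroid and 0.24 for the endothelial markers. Of 6 muscle precursor markers only Chrna1 was measured, at -0.36 (limma adjusted p = 0.375). Without control pool 3 the limma adjusted p was 0.121 for Hba-x, 0.0778 for Hbb-b2 and 0.0905 for Slc4a1, and without overexpressing pool 2 it was 0.150, 0.0972 and 0.125. Hba-x also missed without control pool 2 (0.130) and overexpressing pool 3 (0.0757), Hbb-b2 without control pool 1 (0.078), and Slc4a1 without control pool 2 (0.088) and overexpressing pool 3 (0.0604). Kdr missed without control pools 1 and 2 (0.0576 and 0.0651) and overexpressing pools 1 and 2 (0.0511 and 0.0778). Over all 15 alternatives Hba-x lost its call in 6, Hbb-b2 in 4, Slc4a1 in 5 and Kdr in 5. The part of these cells in the FGF values was not tested.

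The second question was whether the levels moved with stage. The overexpressing pool differed from the control pool of its stage in Fgf8 by -49.0%, -41.4% and -30.8% at 37, 38 and 39 somites. The differences were -53.9%, -52.6% and -25.6% in Fgf4 and -35.1%, -57.1% and -47.7% in Fgf9. The gap of Fgf8 was thus smallest in the last pair, as was that of Fgf4, with 1 pool per genotype and stage. A test of whether the slopes differed between genotypes called none of the 8 (limma adjusted p of 1.00 each), nor any of the 12065 genes (0.0% called); at an unadjusted p under 0.05 it held 240 genes and 0 of the 8. For Fgf8 the difference in slope was 0.22 log2 per somite (SE 0.10) and for Fgf4 0.33 (SE 0.15).

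Across both genotypes no slope per somite passed among the 8, where 0.356% of all genes passed. The limma adjusted p ran from 0.816 for Fgf8 (slope 0.12, 95% interval -0.01 to 0.25) to 0.996 for Fgf10 (slope -0.00, 95% interval -0.09 to 0.08), and 0 of the 8 had an unadjusted p under 0.05. In the same fit 43 genes passed, among them the FGF feedback inhibitor Spry2 from the response genes (slope 0.29 log2 per somite, limma adjusted p = 0.0149) and Col3a1 from the mesenchyme markers (-0.34, limma adjusted p = 0.0165), both named after their values were seen.

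Among themselves the ridge ligands varied together to different degrees. Over the 6 libraries on the log2(CPM + 1) scale, Pearson's r with Fgf8 was 0.987 for Fgf4, 0.911 for Fgf9 and 0.772 for Fgf17, and these values include the genotype difference. Taken as deviations from the genotype means, r with Fgf8 was 0.954 for Fgf4, 0.891 for Fgf17 and 0.260 for Fgf9. All genes of a library share its depth and stage, and the values are a description over 6 points. The genes most like Fgf8 by r among 9752 named genes of at least 5 CPM on average were Sh3rf1, Atp7a, Slc1a3, Ascc1 and AA960436 (r between 0.986 and 0.988). This r also includes the genotype difference and so favours genes that differ between the genotypes. The genotype tests of the genes picked for Fgf8 and, below, for Fgfr1 are thus not independent support. As deviations from the genotype means, their r with Fgf8 ran from 0.894 to 0.951. Of the 5 genes Slc1a3, a glutamate transporter, fell (log2 fold change -0.75, limma adjusted p = 0.0185) and the others did not pass. It was at 85.5 ± 5.90 CPM in controls and 51.0 ± 10.4 CPM with Meis2 overexpression (SD, n = 3 each), and its limma adjusted p was 0.0589 and 0.081 without control pools 2 and 3 and 0.0695 without overexpressing pool 2. Those most like Fgfr1 were Cd248, Gtf3c5, Sh3glb2, Lmx1b and Ccdc88c (r between 0.990 and 0.992, or 0.967 to 0.992 as deviations from the genotype means). Of these Lmx1b, a homeobox gene of the dorsal limb mesenchyme, rose (0.46, limma adjusted p = 0.0413), and Cd248 stood at 0.60 (limma adjusted p = 0.0538). The call of Lmx1b was lost without control pools 2 and 3 (limma adjusted p = 0.120 and 0.144) and overexpressing pools 1 and 2 (0.0629 and 0.142). Over all 15 alternatives Slc1a3 lost its call in 4 and Lmx1b in 6.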

How the data were processed

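RNA of distal limb bud tips was sequenced from TruSeq RNA v2 polyA libraries, per the labels. The deposited table gives CPM per gene, normalized by the authors before deposit. Tools listed in the submitters' processing notes were RSEM 1.17, cutadapt 1.2.1 and edgeR, on build NCBIM37; the filter on low genes is not given in the sources used here. In every library 100% of the values lay within 0.001 of a whole multiple of 1 step, so whole reads were recovered (7622698 to 15395447 per library). In the third overexpressing library few values are low enough for an independent check of that step. Poisson intervals cover counting error only.

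Differences between genotypes were fitted on log2(CPM + 1) in limma 3.58.1 under R 4.3.3 (eBayes with a trend, 6.03 prior degrees of freedom), two-sided, adjusted over all 12065 genes and called under 0.05. The log2 fold changes understate changes of low genes. Within-library ratios were tested with exact permutation tests over pools. The alternatives were pseudocounts of 0.1 and 5, a filter of 5 CPM in 3 libraries, median-of-ratios scaling, a robust eBayes fit that drops the trend, DESeq2 1.42.0 and edgeR 4.0.16 run on recovered reads, somite number or replicate number in the fit, and each library left out. The interaction and the transcript lengths were added after the data were seen. The fit was tested on simulated data.

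The members, gene lists and tests were chosen with earlier results of these data known. Besides the members and Meis2, up to 4 called genes of each list are named, or else the 2 with the smallest p, and the 5 genes most like Fgf8 and Fgfr1; any other is marked as chosen later. 1 gene that the rule names is not reported here. Lengths and overlaps come from GENCODE M21, copies from blastn 2.17.0 (97% identity), and promoters from RefSeq. Both use build GRCm38, not the authors' build, so lengths only approximate those behind the counts. The labels name pools of embryos; whether pools shared a litter is not stated, so p-values measure the spread between these pools.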

Additional observations from a re-analysis of the deposited data

How the results depend on the processing

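Of the 15 alternatives, 3 FGF ligands fell in 8, namely both pseudocounts, the 5 CPM filter, median-of-ratios scaling, edgeR, DESeq2, somite number and the replicate block. With robust eBayes without a trend 1 fell (Fgf9), and with each library left out in turn 0 to 2 fell. Fits with a library left out hold fewer pools, and the cause of the lost calls was not tested. DESeq2 called 1 of the 8 higher (Fgfr1). Among the other FGF pathway genes 5 fell, 1 with robust eBayes without a trend and 0 to 4 with a library left out; with somite number in the fit 1 rose (Sdc2, adjusted p = 0.0305, named after its value was seen). The log2 fold change of Fgf8 kept its direction in all 15 alternatives (-0.89 to -0.66), as did those of Fgf4 (-1.05 to -0.71) and Fgf9 (-0.91 to -0.47). Over all genes limma called 177, DESeq2 290, robust eBayes without a trend 86, the fit with somite number 340 and the replicate block 258.

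No slope passed under any setting, and 4 changed sign with a library left out. Their slopes in log2 per somite then ran from -0.0274 to 0.262 for Fgf4, from -0.0200 to 0.0216 for Fgf10, from -0.0905 to 0.0212 for Fgfr1 and from -0.0770 to 0.00468 for Fgfr2. The replicate numbers equal the stages and were not treated as pairs, since same-numbered pools had correlations of 0.03, -0.15 and 0.38 in their deviations from the genotype means. With the replicate block the adjusted p was 0.0059 for Fgf8, 0.0211 for Fgf4 and 0.0416 for Fgf9, and 3 members fell. The within-pair differences gave the same ratios (replicate block), for which 3 pairs allow no exact p below 0.25. With the mean log2 level of the markers in place of their sum, the ratio of Fgf8 to the ectoderm markers differed by -0.37. The block also lost the calls of Sp8 (adjusted p = 0.0536) and Lmx1b (0.0612) and added Dusp4 (0.0411) and Prrx1 (0.0211); it changed the call of no member. With the 5 CPM filter Fgf17, Fgf15 and Chrna1 dropped out and gave no value. Depth limits Fgf17, Fgf9 and Fgfr3, at 19 to 83 reads per library.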
